A study of Homo sapiens with 3 samples.

Results

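The genes described here encode the core of the cell cycle engine, beginning with the cyclin-dependent kinases CDK1, CDK2, CDK4 and CDK6. The others are the phosphatases CDC25A, CDC25B and CDC25C that activate CDK1 or CDK2, and the kinases WEE1 and PKMYT1 that hold CDK1 inactive. They were chosen by name, taking every probe whose gene name on the array was one of these symbols, with CDK1 listed under its older name CDC2. In all, 9 of the 27274 gene names on the array were taken, and each was measured by 1 probe. The arrays came from HepG2 cells, an established human hepatocellular carcinoma line, and had 1 array for each of 3 conditions. These were cells that received no etoposide (0 μM, the control), 10 μM etoposide (the low dose) and 100 μM etoposide (the high dose), each harvested at 30 h. Etoposide blocks topoisomerase II after it has cut DNA and so leaves double-strand breaks, and the study used the low dose to obtain senescent cells and the high dose to obtain apoptotic cells. The labels call the control untreated, whereas the paper calls it DMSO, and all conditions shared the same cell line and culture medium.

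CDK1 with cyclin B drives entry into mitosis, CDK2 with cyclins E and A drives S phase, and CDK4 and CDK6 with D cyclins act in G1. WEE1 phosphorylates a tyrosine, and PKMYT1 mainly the neighboring threonine, in the ATP-binding loop of CDK1, which blocks the kinase, and the CDC25 phosphatases remove these phosphates. After DNA damage, the checkpoint kinases CHEK1 and CHEK2 inhibit CDC25 proteins and thereby keep CDKs phosphorylated, a control that acts on proteins and that an mRNA array does not measure.

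The 60-base probe of CDK1 is shown because this gene was read by 10 spots on each array and had the smallest spot-to-spot errors of the members. It is written 5′ to 3′ in lower case with nothing marked:
CDK1 probe: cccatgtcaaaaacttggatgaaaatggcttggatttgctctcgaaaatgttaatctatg
In the files it maps to chr10:62222010-62223656 of hg18 on the plus strand, a span of 1647 bases, so the probe crosses an intron and its letters are exonic. It has 1 reading frame without a stop codon. The other 8 probes each lie within 60 contiguous bases, and their exonic features were not analysed here because no hg18 annotation was used.

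Promoter sequence is shown for CDK1 and the CDC25 genes because these genes are textbook targets of cell cycle control by the E2F factors and by the DREAM and MYB-MuvB complexes, which bind the cell cycle homology region (CHR, letters TTTGAA, with the variant TTCGAA). Each line gives the 100 bases before an annotated RefSeq start on GRCh38.p14, 5′ to 3′ on the gene's strand, with capitals marking the CHR letters or, in CDC25A, the E2F letters TTTGGCGC.
CDK1, chr10:60778378-60778477, plus strand: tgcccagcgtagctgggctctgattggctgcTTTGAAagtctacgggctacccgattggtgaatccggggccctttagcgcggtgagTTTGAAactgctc
CDC25C, chr5:138331805-138331904, minus strand: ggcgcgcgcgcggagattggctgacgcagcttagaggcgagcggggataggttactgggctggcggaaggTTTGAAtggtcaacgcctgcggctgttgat
CDC25B, chr20:3796210-3796309, plus strand: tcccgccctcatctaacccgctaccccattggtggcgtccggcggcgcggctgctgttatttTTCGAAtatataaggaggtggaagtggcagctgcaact
CDC25A, chr3:48188418-48188517, minus strand: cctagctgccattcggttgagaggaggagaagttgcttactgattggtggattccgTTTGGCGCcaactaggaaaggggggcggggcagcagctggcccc
Starts were given for 6 of the 9 genes, in 14 of 35116 windows, and none for CDK2, WEE1 and PKMYT1. Within 250 bases before a start, on both strands, TTTGAA was found in 3 of the 14 member windows (CDK1 and CDC25C) and in 13.3% of all windows. The variant TTCGAA was found in 1 of the 14 (CDC25B) and in 1.19% of all windows. The E2F letters TTTGGCGC were found in 1 of the 14 (CDC25A) and in 0.550%, and TTTCGCGC in 1 of the 14 (CDK1) and in 0.439%. A CCAAT box (letters CCAAT) was found in 7 of the 14 (CDK1 and all CDC25 genes) and in 32% of all windows. The windows of CDK4 and CDK6 held none of these letters. These matches describe the sequence and do not show that a factor bound there.

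Each array carried 44495 spots, of which 43118 measured 34127 probes. Between 19835 and 20150 probes were well above background, and no spot was saturated. For the members, all 81 spots over the 3 arrays were well above background and none was marked as an outlier by the software. All 10 hepatocyte markers (such as ALB and AFP) were well above background on each array. Of 5 blood cell markers, 4 were also well above background, and their summed deposited signal came to 1625, 2055 and 2847 at 0, 10 and 100 μM. Of 5 fibroblast markers, 1, 1 and 0 were above background in that order, and of 4 endothelial markers, 2, 2 and 3. The part of these marker signals in the results was not tested. Signals are fluorescence intensities after background subtraction, and ratios were taken after dividing each array by its 75th percentile over probes (514, 537 and 433 in control, low and high dose). Since each condition had 1 array, the ratios could not be checked against replicates, and p-values are not reported. As the only error at hand, the spot-to-spot error of a log2 ratio was taken from the 10 spots of CDK1 and CDK2 and, for the members with 1 spot, from the 50 repeated probes nearest in signal on each array. It does not cover the spread between cultures. In a bulk sample, fewer cells in a phase of the cycle and less RNA per cell cannot be told apart.

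At the low dose, CDC25A and PKMYT1 were 2.08-fold and 2.17-fold higher than in control cells, CDK1 and CDK2 were 1.47-fold and 1.41-fold higher, and CDK6 was 1.64-fold lower. At the high dose, all 9 members were below control, by 1.44-fold for CDK6 to 7.15-fold for CDC25C. Thus 2 members were 2-fold or more higher at the low dose and 0 were 2-fold or more lower, beside 3.37% and 1.57% of 16699 genes measured (4.95% either way). At the high dose, 6 were 2-fold or more lower and 0 higher, beside 3.65% and 6.75% of 16893 genes (10.4% either way). From the low to the high dose, 7 were 2-fold or more lower and 0 higher, beside 3.65% and 3.94% of 16733 genes (7.6% either way). The median log2 ratio of the members was 0.16 at the low dose, −1.48 at the high dose and −1.84 between the doses, whereas that of all genes was −0.04, 0.09 and 0.10.

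**Figure D1:**
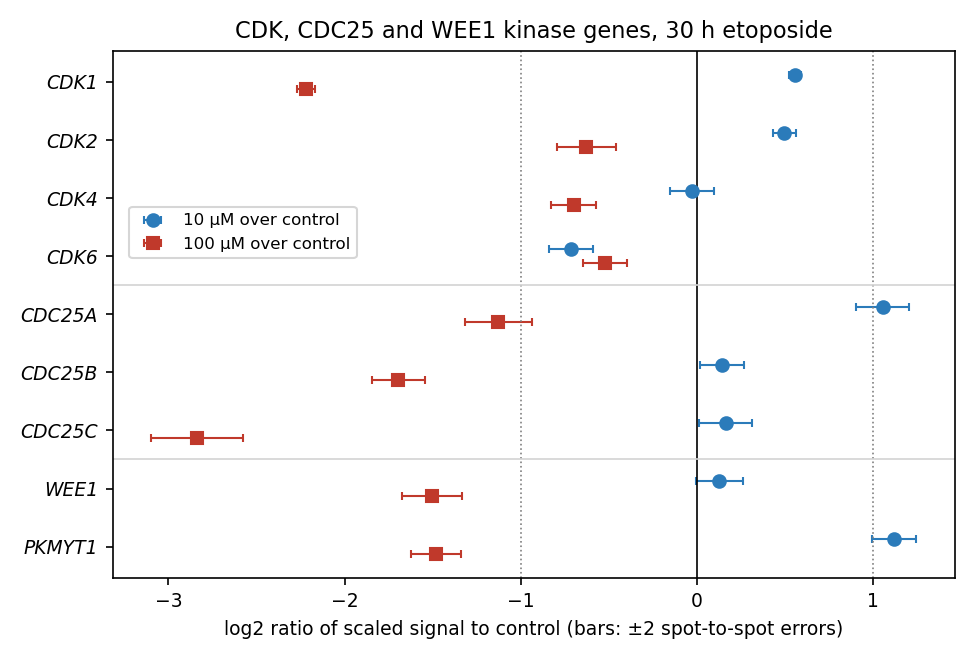
Log2 ratio of scaled signal to control for each of the 9 genes (x axis) at 10 μM (circles) and 100 μM (squares) etoposide, 1 array per condition, with bars of 2 spot-to-spot errors and dotted lines at 2-fold. All 9 squares lie to the left of 0, from −0.52 (CDK6) to −2.84 (CDC25C), whereas 7 of the 9 circles lie to the right of it.

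The balance of higher and lower genes over the whole array depended on the scaling. Of the genes past 2-fold at the high dose over control, 64.9% were higher with the 75th percentile, 37.2% without scaling, 33.2% with the median, 49.8% with quantile normalization, 45.1% with the spike-in controls and 47.6% after normexp background correction. Between the doses the corresponding shares were 51.9%, 22.2%, 25.4%, 34.6%, 28.8% and 27.5%. The median of all genes at the high dose over control moved by −0.24 on the log2 scale without scaling, by −0.28 with the median and by −0.16 with the spike-in controls. Between the doses it moved by −0.31, −0.26 and −0.22. The ratios of the members are given relative to the 75th percentile, and differences between members on the same arrays are independent of any scaling by 1 factor per array.

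CDK1, the kinase that drives mitosis, stood above control at 10 μM and far below it at 100 μM. Its signal was 1763 at 0 μM, 2709 at 10 μM and 318 at 100 μM. The 10 spots ranged from 1705 to 1831, from 2587 to 2912 and from 298 to 358 in that order. After scaling, CDK1 was 1.47-fold higher at the low dose (log2 ratio 0.56, spot error 0.018) and 4.66-fold lower at the high dose (−2.22, spot error 0.025). The scaled spots lay between −0.05 and 0.05 around the control mean at 0 μM. They lay between 0.49 and 0.66 at 10 μM and between −2.32 and −2.05 at 100 μM. These ranges show how precisely 1 array was read, and the share of all repeated probes whose spots separate is not given here. From the low to the high dose CDK1 was 6.86-fold lower.

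CDK2, the partner of cyclins E and A, moved the same way as CDK1 over smaller distances. Its probe, at chr12:54652056-54652115 of hg18, gave signals of 70.3, 104 and 38.3 in control, low and high dose. The spots ranged from 63.9 to 74.5, from 96.5 to 116 and from 30.1 to 57.2, and the spot SD on the log2 scale was widest at the high dose, 0.25. The scaled log2 ratio was 0.50 (spot error 0.033) at the low dose and −0.63 (spot error 0.083) at the high dose, a 1.54-fold lower value. On the scaled axis the high-dose spots reached from −0.98 to −0.05 and met the control spots, which reached from −0.14 to 0.08. Without its highest spot at the high dose, an alternative chosen after seeing the data, CDK2 was 1.61-fold below control. After normexp background correction its log2 ratio at the high dose was −0.08 over control and −0.38 over the low dose, so that the 2.18-fold lower value between the doses was no longer past 2-fold. Relative to CDK2, CDK1 was 3.02-fold lower at the high dose over control (difference −1.59, spot error 0.086), whereas at the low dose the ratios of CDK1 and CDK2 differed by 0.06 (spot error 0.038).

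**Figure D2:**
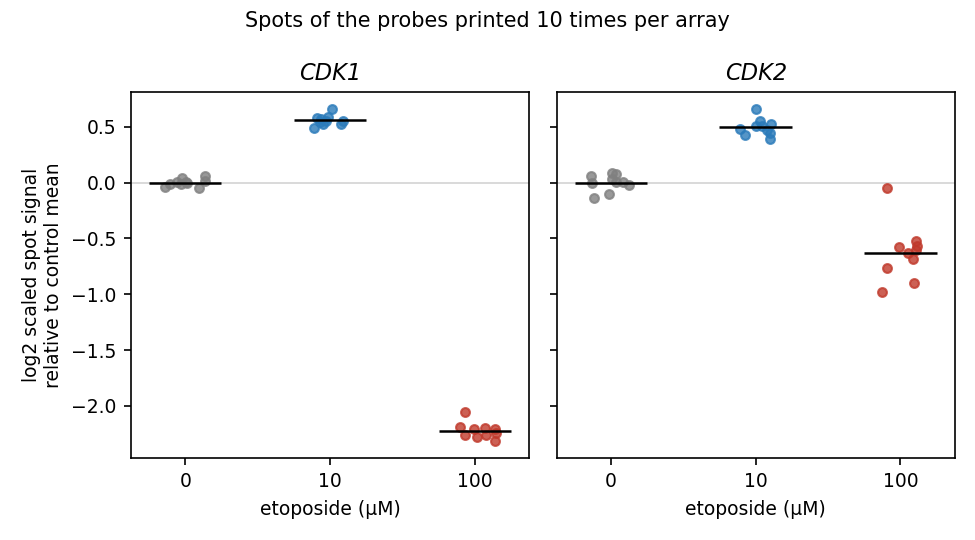
Signals of the 10 spots of CDK1 and of CDK2 on each array after scaling, as log2 relative to the mean of the control spots (y axis), for control, 10 μM and 100 μM (x axis). Each point is 1 spot of 1 array. At 100 μM the spots of CDK1 lie between −2.32 and −2.05, and those of CDK2 (−0.98 to −0.05) meet the CDK2 spots of control (−0.14 to 0.08).

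CDK4 and CDK6, the kinases of G1, were the members with ratios below 0 at both doses, a pattern of 33.6% of 16352 genes measured in both comparisons, although CDK4 at the low dose was within its spot error of 0. CDK4 (chr12:56428530-56428589) had signals of 6989, 7158 and 3627. Its control and low-dose values differed by less than 2 spot errors (log2 ratio −0.03, spot error 0.064), and the sign of this ratio turned under other scalings, which gave −0.05 to 0.03. At the high dose CDK4 was 1.62-fold lower than in control cells (−0.70, spot error 0.064), and the ratios of CDK2 and CDK4 there differed by 0.07 (spot error 0.10), and by 0.67 after normexp correction.

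CDK6 (chr7:92072379-92072438) had signals of 9111, 5799 and 5345, so it was the member whose lower value was already present at the low dose. It was 1.64-fold lower there (−0.71, spot error 0.062) and 1.44-fold lower at the high dose (−0.52, spot error 0.063). The difference between the doses was 0.19 (spot error 0.064) and turned to −0.12 under another scaling, so the order of the 2 doses is not settled. CDK1 was 2.41-fold higher than control relative to CDK6 at the low dose and 3.25-fold lower at the high dose (difference −1.70, spot error 0.068).

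The CDC25 phosphatases were all more than 2-fold below control at the high dose, and 1 of them was more than 2-fold above it at the low dose. Over all genes, 3.65% were past 2-fold lower at the high dose and 3.37% higher at the low dose. CDC25A, which acts on CDK2 at the start of S phase and also on CDK1, had signals of 345, 747 and 133 (chr3:48174128-48174187). It was 2.08-fold higher at the low dose (1.05, spot error 0.075) and 2.18-fold lower at the high dose (−1.13, spot error 0.095). Both values lie close to 2-fold, and after normexp correction they were 0.96 and −0.78, neither of them past it. CDC25B, which starts the activation of CDK1 and cyclin B at the centrosome, had signals of 1151, 1327 and 299 (chr20:3734178-3734237). It was 1.10-fold higher at the low dose (0.14, spot error 0.063) and 3.24-fold lower at the high dose (−1.69, spot error 0.075).

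CDC25C, a phosphatase that activates CDK1 at mitosis, had the lowest ratio of the members at the high dose, except after normexp correction, when CDK1 (−2.03) lay below it (−1.84). Its signals were 533, 623 and 62.8 (chr5:137649139-137649198), giving a log2 ratio of 0.16 (spot error 0.075) at the low dose and −2.84 (spot error 0.13) at the high dose. Only 41 of 16893 genes had a lower ratio of the high dose over control. Within the same arrays, CDC25C was 3.27-fold lower relative to CDC25A (difference −1.71, spot error 0.16) and 2.21-fold lower relative to CDC25B (−1.14, spot error 0.15). After normexp correction these differences were 2.09-fold and 1.24-fold. At the low dose CDC25A also stood 1.85-fold higher relative to CDC25C (0.89, spot error 0.11), and CDC25B and CDC25C differed by 0.02 (spot error 0.098).

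The inhibitory kinases WEE1 and PKMYT1 had different ratios at 10 μM, and at 100 μM their difference was within the spot error. WEE1, the nuclear kinase, had signals of 763, 870 and 227 (chr11:9567649-9567708). Its log2 ratio was 0.13 at the low dose, within 2 spot errors of 0 (spot error 0.066), and −1.50 at the high dose (spot error 0.085), a 2.83-fold lower value. PKMYT1, the kinase bound to the endoplasmic reticulum and Golgi membranes, had signals of 1936, 4392 and 584 (chr16:2962821-2962880).

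PKMYT1 had the highest ratio of the 9 members at the low dose, 2.17-fold above control (1.12, spot error 0.063), and was 2.79-fold below control at the high dose (−1.48, spot error 0.071). The ratios of PKMYT1 and WEE1 differed by 0.99 (spot error 0.092) at the low dose and by 0.02 (spot error 0.11) at the high dose. By role, activators and inhibitors lay on the same side at each dose. At the low dose CDC25A and PKMYT1, with opposite actions on CDKs, were the 2 members past 2-fold, beside 3.37% of all genes higher. At the high dose all 5 CDC25 and WEE1 family members were past 2-fold in the lower direction (without CDC25A after normexp correction), beside 3.65% of all genes. CDC25C was 2.52-fold lower relative to WEE1 at the high dose (−1.33, spot error 0.16), or 1.47-fold lower after normexp correction, and CDC25A was 1.90-fold higher relative to WEE1 at the low dose (0.93, spot error 0.10). In all, 12 pairs of members were compared in this way.

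**Figure D3:**
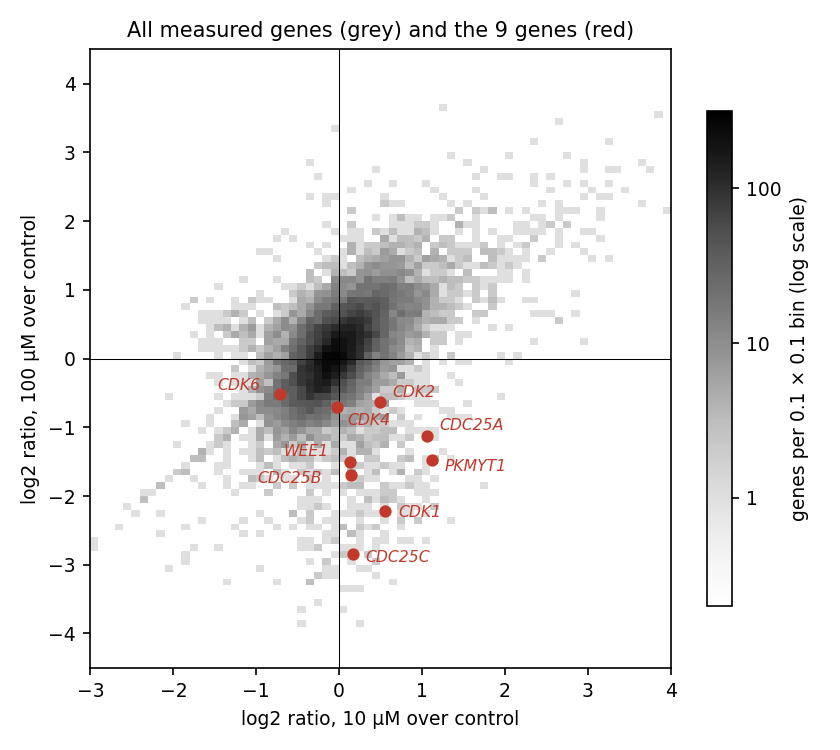
Log2 ratio at 100 μM (y axis) against that at 10 μM (x axis), both over the same control array, for the 9 genes (labelled points) on the density of all genes measured in both comparisons. CDC25A and PKMYT1 lie beyond 2-fold to the right and below, CDK6 (−0.71, −0.52) lies to the left, and CDC25C is lowest (−2.84).

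A ratio above 0 at 10 μM with 2-fold or more below control at 100 μM was the pattern of 6 members (CDK1, CDC25A, CDC25B, CDC25C, WEE1 and PKMYT1) and of 242 of 16352 genes (1.48%). With 2-fold or more required in both directions, 22 genes were left (0.135%), among them CDC25A and PKMYT1. The others included the DNA repair genes BRCA1 and BLM, the flap endonuclease FEN1, the ribonucleotide reductase subunit RRM2 and the transcription factor E2F2, which were chosen after their values were seen. For 3 of the 22 genes the high-dose value is a bound. Both ratios share the control array, so a high or low control signal moves them together. At 10 μM, WEE1 (0.13) lay within 2 spot errors of 0, and CDC25B (0.14) and CDC25C (0.16) lay little beyond 2. After normexp correction CDC25A, at 0.96 and −0.78, was not past 2-fold at either dose.

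Genes with the pair of ratios nearest to a member were taken from 12047 genes, by the distance between their 2 log2 ratios over these 3 arrays. Nearest to CDK1 were the replicative helicase subunit MCM2 (distance 0.02), the spindle protein TACC3 (0.07), FAM54A (0.14), FANCD2 of the Fanconi anemia pathway (0.15) and IQGAP3 (0.16). Nearest to CDC25A were FEN1 (0.07), the clamp loader subunit CHTF18 (0.11), the nuclease subunit EME1 (0.12), LOC81691 (0.16) and MTBP (0.18). Nearest to WEE1 were ATAD2 (0.05), THOC3 (0.11), the DNA polymerase alpha subunit POLA1 (0.11), the deubiquitinase USP1 (0.13) and MCM6 (0.14). Within a distance of 0.25 there were 17 genes around CDK1, 6 around CDC25A and 26 around WEE1.

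The cyclins that partner these kinases did not move as 1 group. Of 10 cyclins, 8 were measured, with 1 past 2-fold higher at the low dose and 3 past 2-fold lower at the high dose. Of all genes, 3.37% were past 2-fold higher at the low dose and 3.65% lower at the high dose. The cyclin past 2-fold at the low dose was the CDK2 partner CCNE2, 2.79-fold higher, named after its value was seen. The mitotic cyclin CCNB2 was 9.75-fold lower at the high dose and CCNA2, which partners CDK2 and CDK1, was 7.40-fold lower. The D cyclins CCND3 and CCND2, partners of CDK4 and CDK6, were 1.59-fold and 1.32-fold higher there. The median over the 8 was 0.36 at 10 μM and −0.19 at 100 μM, and the latter lay between −0.47 and 0.03 over the alternatives.

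Of 7 CDK inhibitors, 5 were measured. The p53 target CDKN1A, which binds CDK2 and CDK1 complexes, was 7.94-fold higher at 10 μM and 7.07-fold higher at 100 μM. CDKN2A, an inhibitor of CDK4 and CDK6, was 1.28-fold higher at the high dose. CDKN2C, which acts on the same kinases, was 4.29-fold lower, and CDKN1B was 1.92-fold lower. CDKN1A was thus the 1 inhibitor past 2-fold higher and CDKN2C the 1 past 2-fold lower at the high dose, beside 6.75% and 3.65% of all genes. The medians (0.03 at 10 μM, −0.03 at 100 μM) changed sign under alternatives.

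The CDK-activating kinase phosphorylates the activation loop of CDKs, and the CKS proteins help CDK complexes bind substrates. All 6 genes of this list, which also holds the CDK phosphatase CDKN3, were measured. At the low dose 0 of 6 passed 2-fold, beside 4.95% of all genes. At the high dose 3, including CDKN3 (5.13-fold) and CKS1B (4.66-fold), were past 2-fold lower, beside 3.65% of all genes. The subunits of the activating kinase MNAT1 and CDK7 were 1.32-fold and 1.37-fold lower. The list had a median of −0.10 at 10 μM and −1.08 at 100 μM.

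Among 19 regulators upstream of CDC25 or WEE1 proteins, all measured, 2 were past 2-fold higher at each dose, beside 3.37% and 6.75% of all genes. At the low and high dose 0 and 4 were past 2-fold lower, beside 1.57% and 3.65%. PLK1, which activates CDC25C and marks WEE1 for degradation, was 9.70-fold lower at the high dose, and its activator AURKA was 4.62-fold lower. SFN, a 14-3-3 protein that can hold CDK1 and cyclin B in the cytoplasm, was 4.14-fold higher at 10 μM and 2.60-fold higher at 100 μM. The polo-like kinase PLK3 was 3.88-fold and 2.35-fold higher. Over the 19 regulators the median was 0.07 at 10 μM and −0.19 at 100 μM.

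The Greatwall kinase and the PP2A-B55 phosphatase govern how long CDK substrates stay phosphorylated. Of these genes with the CDC14 phosphatases, 8 of 9 were measured, with medians of −0.04 and −0.13. At the low and high dose 0 passed 2-fold, beside 4.95% and 10.4% of all genes. Between the doses 1 was past 2-fold lower (MASTL, 2.85-fold), beside 3.65% of all genes, and MASTL was 1.65-fold higher at the low dose. At the high dose MASTL (the Greatwall kinase) was 1.73-fold lower, CDC14B 1.73-fold lower, ENSA 1.34-fold higher and PPP2R2D 1.09-fold higher.

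The E2F factors, pocket proteins and DREAM subunits control the transcription of CDK1 and the CDC25 genes. All 19 were measured, with 3 past 2-fold higher at the low dose, beside 3.37% of all genes. At the high dose 9 were past 2-fold lower, 1 of these measured as a bound (E2F8), beside 3.65% of all genes. FOXM1, which drives genes of G2 and mitosis, was 7.92-fold lower at the high dose and 1.10-fold higher at the low dose. MYBL2, which binds CHR promoters with the MuvB core, was 5.65-fold lower at the high dose and 1.38-fold higher at the low dose. E2F7, a repressor of E2F targets, was 7.95-fold higher at 10 μM and 1.21-fold higher at 100 μM, and the MuvB subunit LIN37 was 1.38-fold higher at the high dose. The list median was 0.22 at 10 μM and −0.98 at 100 μM, and the latter lay between −1.26 and −0.42 over the alternatives.

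CDKs outside the cell cycle core, many of which act in transcription or in neurons, gave a comparison within the same kinase family. Of 16 such genes, 14 were measured, and 0 of 14 were past 2-fold in either direction at either dose or between the doses. Over all genes these shares were also low, at 4.95% (low dose), 10.4% (high dose) and 7.6% (between the doses). Of the 4 cell cycle CDKs, 1 (CDK1) was past 2-fold lower at the high dose, beside 3.65% of all genes. Between the doses 2 were past it (CDK1 and CDK2, the latter not after normexp correction), also beside 3.65%. The median of the 14 was −0.09 at 10 μM and 0.01 at 100 μM (between −0.28 and 0.08 over the alternatives), beside 0.23 and −0.66 for the cell cycle CDKs. PCTK2 was at least 1.40-fold lower at the high dose, since it was not well above background there, and PFTK1 was 1.36-fold lower. PCTK3 and CDK10 were 1.90-fold and 1.65-fold higher. With 1 array per condition this difference between the CDK groups was not tested.

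**Figure D4:**
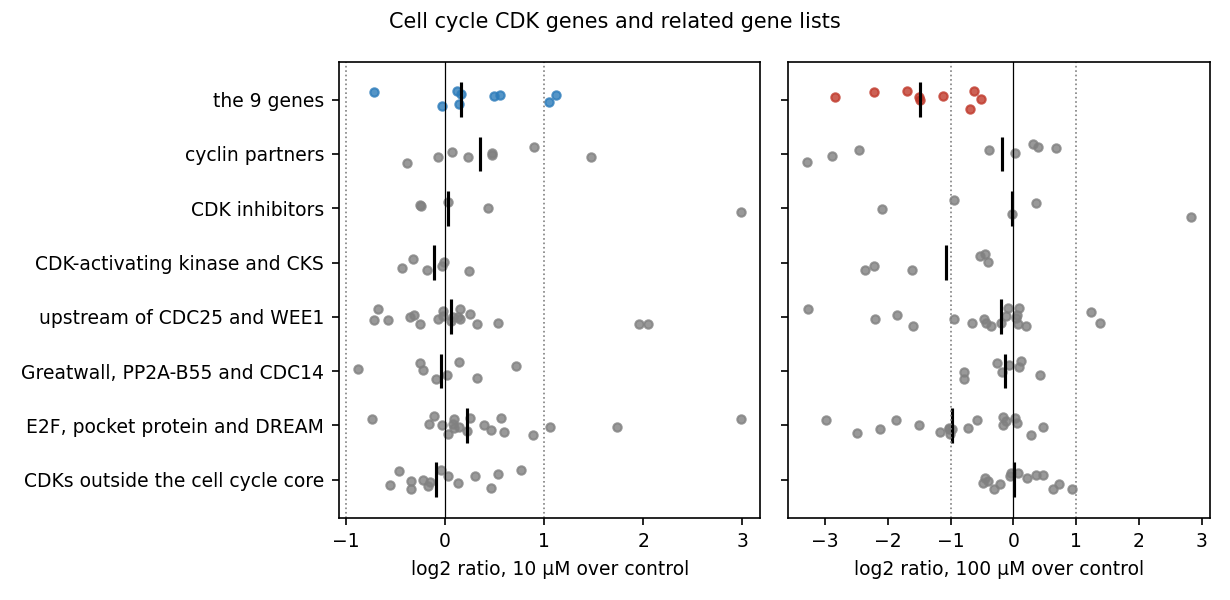
Log2 ratio to control at 10 μM and at 100 μM for every measured gene of the 9 members and of the 7 related gene lists, with 1 point per gene and black bars at the medians. The member median lies at −1.48 at 100 μM, compared with 0.01 for the CDKs outside the cell cycle core.

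**Figure D5:**
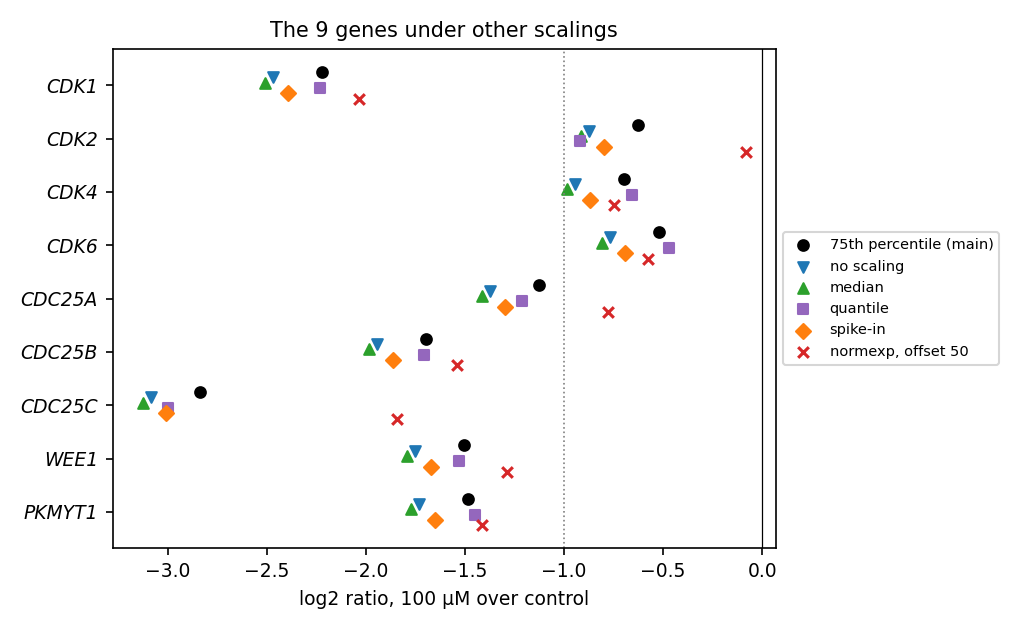
Log2 ratio of the 9 genes at 100 μM over control under the 75th percentile and other ways of scaling or background correction, 1 marker type per setting. The ratios stay below 0 in each setting plotted, with normexp bringing CDK2 to −0.08 and CDC25C to −1.84.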

How the data were processed

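RNA from HepG2 cells was labelled with Cy3 and hybridized to 1-colour arrays. The authors deposited scanner output from Agilent Feature Extraction 10.7.3.1 and a series table, and the deposited intensity of each spot was background-subtracted by that software. The table equals these intensities for all 44495 spots, so the arrays had not been scaled to each other. Here the intensities were put on the log2 scale, averaged over the spots of a probe without outlier spots, and set against the array's own 75th percentile by subtraction, counting each probe once. A gene stands for its brightest probe. A ratio required a signal well above background on the brighter array, and a dim signal was raised to the lowest signal well above background (19.5 in control, 22.7 at the low and 21.6 at the high dose) and gives a bound. The 2-fold threshold is a description.

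The members, lists and tests were chosen with earlier results of these data known. Named are all 9 members, the 2 highest and 2 lowest genes of each list at the high dose, and the 5 genes nearest to CDK1, CDC25A and WEE1, unless stated. The steps were tested on simulated data, made from the control array with spot-level noise and planted changes in probes well above background. Such data do not cover the spread between cultures. Alternatives were other scalings, normexp correction (limma 3.58.1, R 4.3.3, offset 50), filters, probe rules and fold thresholds. Python 3.11.15, numpy 2.4.6, pandas 2.3.3 and matplotlib 3.10.9 were used.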

Additional observations from a re-analysis of the deposited data

How the results depend on the processing

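Members past 2-fold at the low dose over control numbered 2, all higher, and this became 1 after normexp correction and 0 at a 3-fold threshold, while the number lower went from 0 to 1 at a 1.5-fold threshold. Of all genes, 1.52% were higher after normexp correction and 1.29% at 3-fold, and 6.46% were lower at 1.5-fold. At the high dose over control, the 6 members past 2-fold, all lower, became 5 after normexp correction (without CDC25A) and 3 at a 3-fold threshold. The shares of all genes lower there were 2.54% after normexp correction and 1.65% at 3-fold. Between the doses, 7 became 6 after normexp correction (without CDK2) and 6 at 3-fold, beside 2.42% and 1.88% of all genes lower. Of 324 member ratios recomputed under 12 alternatives, 235 moved by less than their spot error, 89 moved by more and 0 of the called ratios changed sign. CDK4 at the low dose and CDK6 between the doses, neither past 2-fold, changed sign under some scalings. Of 147 list medians, 48 moved by 0.1 or more on the log2 scale. No paired analysis was possible because no condition was measured on more than 1 array. The high-dose signals of CDK2 (38.3) and CDC25C (62.8) were the nearest of the members to the lowest signal well above background (21.6), and normexp correction moved their log2 ratios to control from −0.63 to −0.08 and from −2.84 to −1.84.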
